A study of Mus musculus with 8 samples.

Results

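The 9 luminal genes described here are the simple-epithelial keratin genes Krt8, Krt18 and Krt19, the hormone receptor genes Esr1 and Prlr, the surface and junction genes Prom1 and Cldn4, and the epithelial regulators Esrp2 and Elf3. They were chosen by name, and every probe whose identifier carried the Entrez gene number of a member was taken. This gave 11 of the 24611 probes on each array, and 9 of the 11, a single probe for each gene, were detected on enough arrays to be tested. RNA came from mammary tumours of female FVB/N-Tg(MMTV-PyVT)634Mul/J mice, in which the MMTV promoter drives the polyoma middle T antigen in mammary epithelium. All 8 tumours carried this transgene. For 4 tumours the mouse had received SKI-606 (bosutinib), a Src and Abl kinase inhibitor, by mouth at 100 mg/kg, and the mice of the other 4 had received vehicle. The sources used here do not state the animals' age or the length of treatment. Nor do they say whether each array is its own animal, so a p-value here reflects only how these samples vary. The series asks whether the drug moves the tumours towards a differentiated state.

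Luminal cells line the ducts and alveoli of the mammary gland. They build their intermediate filaments from pairs of a type II keratin, K8, and a type I keratin, K18 or K19, whereas basal cells use other keratin pairs. Some luminal cells carry the oestrogen receptor and sense hormones, and luminal cells of the alveoli answer prolactin through its receptor, JAK2 and STAT5 by making milk proteins.

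The arrays measured signal intensities, with 11837 to 12578 probes detected per tumour. Values below are log2 signals after background correction and quantile normalization, and differences are SKI-606 minus vehicle. For SKI-606 replicate 2 the source name speaks of human islets although title, tissue and strain name a mouse mammary tumour. The array stayed in the group of its title, and the differences of Prom1, Cldn4, Krt18, Krt19, Prlr and Esrp2 are also given without it. Its Krt8 and Krt18 signals lay within the range of the other tumours, which does not settle its source, because both are keratins of simple epithelia. Krt8 and Krt18 were detected on all 8 arrays. The milk gene Csn2 read between 9.81 and 14.11, with 14.11 on SKI-606 replicate 2. SKI-606 and vehicle tumours lay at different positions of 1 chip, and these positions cannot be told apart from treatment. In tumour RNA, fewer cells of a type and less RNA per cell cannot be told apart either.

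Krt8 and Krt18 had group means within 0.1 of each other after quantile normalization. Under median scaling of the arrays they differed by -0.31 and -0.20 (limma adjusted p = 0.349 and 0.764). The median of all probes was then -0.12, which applies to each median-scaled difference below. Prom1 was lower in every SKI-606 tumour than in any vehicle tumour, by 3.18-fold on average. Cldn4 was lower in 3 of 4 SKI-606 tumours, Esr1 was slightly higher in all 4, and Prlr was higher in 3. These are normalized values, and in the signals before normalization the groups overlapped for Prom1 and for Esr1. None of the 9 genes passed limma at an adjusted p under 0.05, a threshold that 0.00814% of the 12281 probes tested did pass. Of the 9, 4 were higher and 5 lower, where 52.6% of all probes were lower, with a median difference of -0.01, and the median over all probes was also -0.01. At an unadjusted p under 0.05 there were 2 of 9, Prom1 on the lower and Esr1 on the higher side, against 16.3% of all probes (10.3% lower and 6.04% higher). The groups did not overlap for the same 2 genes, against 11.2% of all probes, 7.42% with SKI-606 lower. A share of 2 in 9 is close to either background.

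Promoter sequences are shown for the keratin partners Krt8 and Krt18, and for Prom1 and Cldn4, which had the largest differences. They are RefSeq windows on GRCm38.p6 with 250 bases before and 50 after an annotated start, and 7 of the 9 genes had at least 1 window, 11 in all. Capitals mark matches, on either strand, to TATAAA (the TATA box), GGGCGG (the GC box of Sp1), CCGGAAG (an ETS factor motif), TTCNNNGAA (the STAT motif) or AGGTCA (the repeat unit of oestrogen response elements).
Krt8, chr15:102004293-102004592, minus strand: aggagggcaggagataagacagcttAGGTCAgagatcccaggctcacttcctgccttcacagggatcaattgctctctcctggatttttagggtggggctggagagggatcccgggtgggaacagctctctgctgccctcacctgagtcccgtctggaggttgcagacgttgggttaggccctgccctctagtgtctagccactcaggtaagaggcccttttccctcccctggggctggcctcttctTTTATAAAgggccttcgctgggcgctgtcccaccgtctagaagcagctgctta
Krt18, chr15:102027966-102028265, plus strand: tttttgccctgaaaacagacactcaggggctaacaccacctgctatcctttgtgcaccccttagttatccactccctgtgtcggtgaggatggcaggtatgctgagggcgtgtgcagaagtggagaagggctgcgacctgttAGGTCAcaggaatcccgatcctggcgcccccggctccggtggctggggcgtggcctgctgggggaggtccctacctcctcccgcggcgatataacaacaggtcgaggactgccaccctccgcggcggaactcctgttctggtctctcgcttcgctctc
Prom1, first of 2 starts, chr5:44101687-44101986, minus strand: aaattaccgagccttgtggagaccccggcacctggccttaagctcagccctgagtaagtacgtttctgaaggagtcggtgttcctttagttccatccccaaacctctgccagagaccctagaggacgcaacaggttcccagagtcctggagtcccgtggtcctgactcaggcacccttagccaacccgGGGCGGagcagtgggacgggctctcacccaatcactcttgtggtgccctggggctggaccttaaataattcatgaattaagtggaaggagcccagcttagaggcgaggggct
Cldn4, chr5:134946885-134947184, minus strand: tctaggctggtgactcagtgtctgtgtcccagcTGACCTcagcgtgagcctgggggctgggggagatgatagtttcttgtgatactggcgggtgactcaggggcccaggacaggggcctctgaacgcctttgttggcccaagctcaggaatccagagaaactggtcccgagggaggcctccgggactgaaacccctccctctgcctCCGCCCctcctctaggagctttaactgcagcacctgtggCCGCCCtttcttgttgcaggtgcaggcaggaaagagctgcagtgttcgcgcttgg

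Counting from 1 at the 5′ end of each window, AGGTCA began at base 26 of the Krt8 window and base 143 of the Krt18 window. It was also present on the opposite strand from base 34 of the Cldn4 window, and 16.3% of 32841 windows of this length held it. In the Krt8 window TATAAA matched at base 250 and, overlapping it, at base 248 on the opposite strand, against 13.6% of windows with a match. Along the window these matches began at -1 and -3 from the annotated start, and both ran across it. The GC box lay at base 189 of the Prom1 window and at bases 207 and 246 of the Cldn4 window on the opposite strand, and 35.7% of windows held it. TTCNNNGAA, found in 8.30% of windows, matched 1 window of Esr1 and 1 of Prlr among the 11. CCGGAAG was in 8.86% of windows and in none of the 11, which says only that these letters are not in these windows. A match describes letters and not binding.

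**Figure D1:**
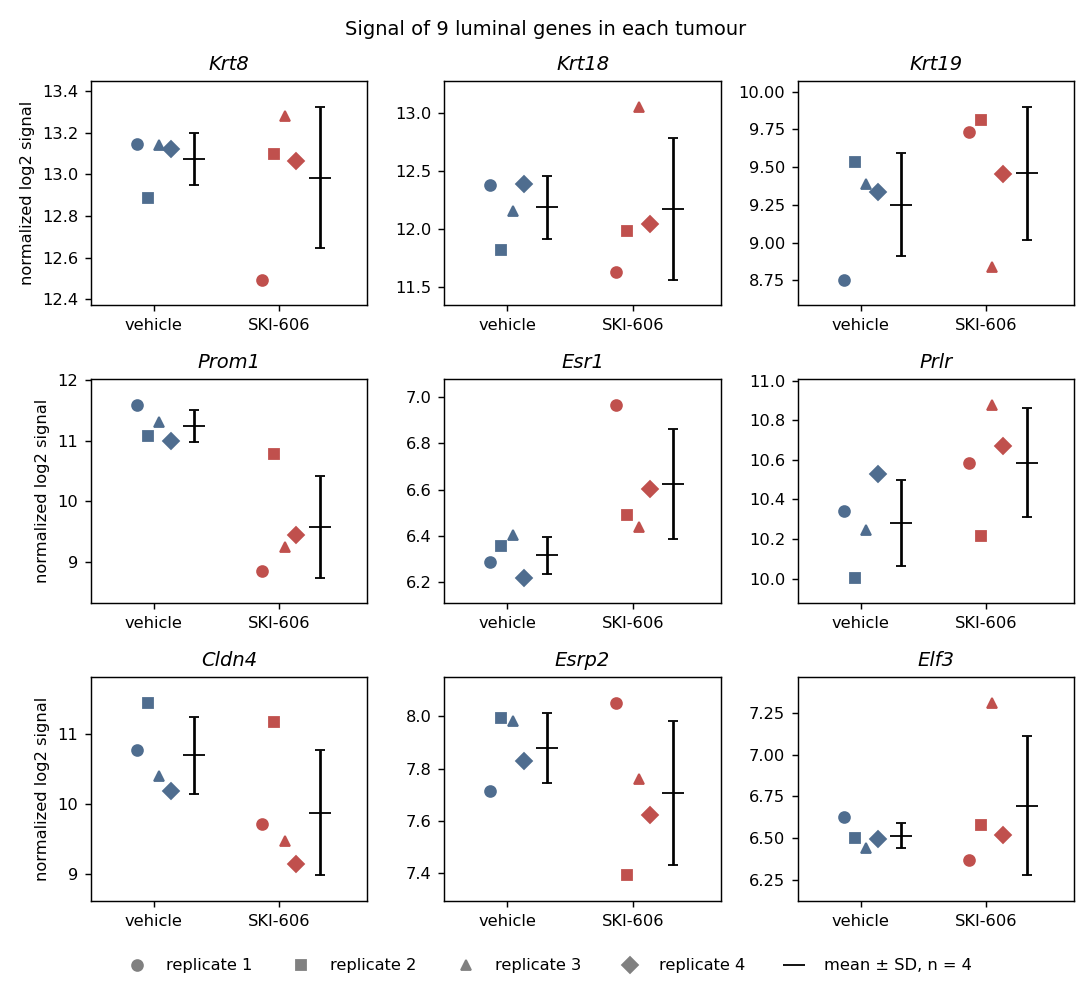
Normalized log2 signal (y axis, a separate scale in each panel) of the 9 luminal genes in 4 vehicle (blue) and 4 SKI-606 (red) tumours, with symbols for replicate numbers and black bars for the group mean ± SD. Only Prom1 and Esr1 have groups that do not overlap, and each panel's SKI-606 values spread more widely than its vehicle values.

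Among the keratins, Krt8 encodes the type II keratin of luminal filaments. Its signal was 12.49, 13.10, 13.28 and 13.06 in SKI-606 replicates 1 to 4, and 13.15, 12.89, 13.14 and 13.12 in vehicle replicates 1 to 4. SKI-606 replicate 1 was the lowest tumour and SKI-606 replicate 3 the highest, so the SKI-606 range enclosed the vehicle range. The Krt8 difference was -0.09 ± 0.17 (SE; limma adjusted p = 0.847), a fold of 0.939 with a 95% interval of 0.717 to 1.23. It was -0.31 under median scaling of the arrays, where the median of all probes was -0.12, and 0.073 without SKI-606 replicate 1. A second Krt8 probe was not detected on any array, with signals from 34.7 to 45.3 and detection p from 0.249 to 0.657.

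Krt18 encodes the type I keratin that pairs with K8. It read 11.63, 11.98, 13.06 and 12.04 in SKI-606 replicates 1 to 4 and 12.38, 11.81, 12.15 and 12.39 in vehicle replicates 1 to 4. The same SKI-606 tumours stood at the ends as for Krt8, replicate 1 at the bottom and replicate 3 at the top. The means were 12.18 ± 0.61 and 12.19 ± 0.27 (SD, n = 4), and the difference of -0.01 ± 0.30 (SE) did not pass (limma adjusted p = 0.991). Its 95% interval, 0.608 to 1.62-fold, leaves room for sizeable change in either direction. The Krt18 difference was -0.20 under median scaling and 0.055 without SKI-606 replicate 2. With single arrays left out it ran from -0.30 (SKI-606 replicate 3 omitted) to 0.17 (SKI-606 replicate 1 omitted).

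Krt19 encodes the shorter type I keratin of ducts and of many carcinomas. Krt19 signals were 9.73, 9.81, 8.84 and 9.45 in SKI-606 replicates 1 to 4, against 8.75, 9.53, 9.39 and 9.33 in vehicle replicates 1 to 4. SKI-606 replicates 1 and 2 lay above all vehicle tumours, and SKI-606 replicate 3 lay near the lowest. The difference was 0.21 ± 0.25 (SE; limma adjusted p = 0.752), and it was -0.05 under median scaling. With single arrays left out it ran from 0.041 without vehicle replicate 1 to 0.41 without SKI-606 replicate 3, and it was 0.089 without SKI-606 replicate 2.

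Across the 8 tumours Krt8 and Krt18 tended to vary together, with Pearson r = 0.79 (exact permutation p = 0.0366, two-sided) and Spearman rho = 0.90 (exact permutation p = 0.00456). Over the 36 pairs of members, the adjusted values were 0.212 for r and 0.0821 for rho. Without the tumours farthest from the Krt8 median, SKI-606 replicate 1 and vehicle replicate 2, r was 0.94, and on values minus their group means it was 0.81. Krt19 ran against Krt18, with r = -0.82 (exact permutation p = 0.0102, adjusted 0.0971) and rho = -0.86 (exact permutation p = 0.0107, adjusted 0.129). That r was -0.72 without SKI-606 replicates 3 and 1. SKI-606 replicate 3, the tumour with the highest Krt18, was the lowest but for vehicle replicate 1 in Krt19.

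Of the other keratins, 30 symbols were listed in all, 14 had a named probe and 7 were measured, of which 3 are members. None passed over all probes, with 2 of the 7 higher, 5 lower and a median difference of -0.09. The 2 non-members with the smallest p were Krt15 and Krt17, type I keratins of basal cells and of skin. Krt15 differed by -1.35 ± 0.71 (SE; limma adjusted p = 0.405) and Krt17 by -0.85 ± 1.03 (limma adjusted p = 0.748). The highest Krt17 signals were 11.63 and 11.36, in SKI-606 and vehicle replicates 2, and the remaining 6 tumours ran from 7.33 to 9.82. The basal and myoepithelial list had 5 of 7 measured genes higher and 0 past the threshold. In it Itgb4, the integrin of hemidesmosomes, differed by 0.31 ± 0.08 (limma adjusted p = 0.161) and Cav1, the caveolae protein, by 0.55 ± 0.21 (limma adjusted p = 0.264).

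Esr1 encodes oestrogen receptor alpha, the nuclear receptor that marks hormone-sensing luminal cells. Its probe was dim but detected on all arrays (signals from 60.6 to 119.6, detection p up to 0.00973). It read 6.97, 6.49, 6.44 and 6.60 in SKI-606 replicates 1 to 4 and 6.29, 6.35, 6.40 and 6.22 in vehicle replicates 1 to 4. All SKI-606 values lay above all vehicle values, narrowly so for SKI-606 replicate 3 and vehicle replicate 3. Before normalization the groups overlapped, with SKI-606 replicate 3 at 92.2, below vehicle replicates 2 and 3 (105.8 and 96.6). The difference was 0.31 ± 0.12 (SE), or 1.24-fold with a 95% interval of 1.02 to 1.50, and did not pass (limma adjusted p = 0.265). Without SKI-606 replicate 1, the highest tumour, it was 0.19 (limma adjusted p = 0.263), where adjusted p over all alternatives ran from 0.136 to 0.445.

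In a list of partners and targets of the oestrogen receptor, 13 of 27 were measured, 9 higher and 4 lower, and 0 passed over all probes. The median difference was 0.08. The corepressor gene Ncor1 differed by 0.30 ± 0.14 (SE; limma adjusted p = 0.364). Greb1, an oestrogen-induced coactivator in human breast cancer cells, differed by 0.08 ± 0.10. Gata3, the luminal transcription factor, had means of 11.35 ± 0.28 with the drug and 11.26 ± 0.16 without (SD, n = 4; limma adjusted p = 0.831). Neither value separated the groups.

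Prlr encodes the prolactin receptor, which drives alveolar growth and milk gene expression. It read 10.58, 10.22, 10.88 and 10.67 in SKI-606 replicates 1 to 4 and 10.34, 10.01, 10.24 and 10.53 in vehicle replicates 1 to 4. SKI-606 replicates 1, 3 and 4 lay above every vehicle tumour, and SKI-606 replicate 2 lay below 3 of them. The difference of 0.31 ± 0.16 (SE), 1.24-fold with a 95% interval of 0.951 to 1.61, did not pass (limma adjusted p = 0.412). It was 0.10 under median scaling and 0.43 without SKI-606 replicate 2. A second Prlr probe was not detected on any array (signals from 29.4 to 35.3).

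Downstream of the receptor, 7 of 19 listed prolactin signalling genes were measured, with 5 higher, 2 lower, 0 past the threshold and a median difference of 0.06. Cish, a STAT5-induced feedback inhibitor, differed by 0.50 ± 0.30 (SE; limma adjusted p = 0.470). SKI-606 replicate 1 alone stood high, at 11.17, and the remaining SKI-606 values ran from 9.82 to 10.01, where the highest vehicle value was 9.82. The phosphatase gene Ptpn11 differed by -0.19 ± 0.12 (limma adjusted p = 0.502), and Jak2, the kinase bound to the receptor, by 0.03 ± 0.09. The milk list beside them, 6 of 16 measured, had 6 of 6 measured genes higher and 0 past the threshold. SKI-606 tumours stood at 1.12 to 1.52 above the vehicle mean in it, and vehicle tumours ran from -0.58 to 0.59 around that mean.

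Prom1 encodes prominin, a membrane protein of microvilli that marks luminal cells in mouse mammary gland. Its log2 signal was 8.85, 10.78, 9.25 and 9.44 in SKI-606 replicates 1 to 4, and 11.59, 11.09, 11.32 and 11.001 in vehicle replicates 1 to 4. SKI-606 replicates 1, 3 and 4 were far below the vehicle tumours, and SKI-606 replicate 2 lay just below the lowest of them. Before normalization, SKI-606 replicate 2 read 1846.2 and vehicle replicate 4 read 1745.1, on arrays whose mean signals were 381.7 and 313.0. The normalized Prom1 means were 9.58 ± 0.84 and 11.25 ± 0.27 (SD, n = 4). The difference of -1.67 ± 0.40 (SE) is a 3.18-fold lower signal and did not pass over all probes (limma adjusted p = 0.142), though its 95% interval ran from -2.59 to -0.75. Of all probes, 0.472% were more than 2-fold lower, and Prom1 ranked 88 of 4137 named genes by p.

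Without SKI-606 replicate 2, whose source name speaks of other cells, Prom1 did pass (difference -2.07, limma adjusted p = 0.0427). That array was also the SKI-606 tumour nearest to the vehicle mean in Prom1, at -0.47. Leaving it out therefore enlarges the difference, whatever its source. Prom1 also passed with array weights, at -1.73 and a limma adjusted p of 0.0465. Over all alternatives the adjusted p ran from 0.0427 to 0.427, and the difference was below 0 in 20 of 20. Several of these could not reverse it. With groups that do not overlap, leaving out 1 array keeps the sign, and changes of probe filter or variance prior leave the difference unchanged. Relative to Krt8 within each array, Prom1 was lower in 4 of 4 SKI-606 tumours than in any vehicle tumour, at -1.82, -0.49, -2.21 and -1.80 relative to the vehicle mean in replicates 1 to 4 (two-sided exact permutation p = 0.0286, the smallest possible, and 0.171 adjusted over 6 such ratios). Relative to Krt18 the groups overlapped, with SKI-606 replicate 2 at -0.27 and vehicle replicate 4 at -0.46 (two-sided exact permutation p = 0.0571, and 0.171 adjusted). These ratios were added after the values were seen. They reuse the Prom1 values that already separated the groups, so their p-values are not separate support for the Prom1 difference.

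Marker lists of other cells are given for these tumours, with 0 genes past the threshold in each list. The adipocyte list, with 5 of 16 genes measured, stood at 1.41, -0.20, 0.61 and 1.55 relative to the vehicle mean in SKI-606 replicates 1 to 4. The tumour with the smallest Prom1 difference, replicate 2, was also the only SKI-606 tumour below the vehicle mean in that list. The order did not hold elsewhere. Vehicle replicate 4 stood at 0.79 in the list with Prom1 at -0.25 from its vehicle mean. SKI-606 replicate 3 stood lower in the list, at 0.61, with Prom1 at -2.00. The summed log2 signal of the adipocyte list ranged from 11.65 to 13.58 in SKI-606 and from 11.46 to 12.70 in vehicle tumours. Among its defining markers, Fabp4, which carries fatty acids in fat cells, was not detected on enough arrays, and Adipoq had no probe named here. The fibroblast list, 7 of 14 measured, summed to 13.47 to 13.93 in SKI-606 against 12.54 to 13.22 in vehicle tumours, and the endothelial list, 6 of 15 measured, to 10.69 to 11.20 against 10.16 to 10.50. The macrophage list, 5 of 12 measured, had 1 gene higher and 4 lower. In the lymphocyte list, 3 of 16 measured, 3 were higher, and the skeletal muscle list had 1 of 12 measured. In the same RNA, Krt8 was 0.58 below its vehicle mean in SKI-606 replicate 1 and 0.01 below it in replicate 4. It was 0.02 above that mean in SKI-606 replicate 2 and 0.21 above it in replicate 3. The part of the listed cell types in the Prom1 and Krt8 values was not tested.

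Cldn4 encodes claudin-4, a tight junction protein of luminal and other simple epithelia. It read 9.72, 11.17, 9.47 and 9.14 in SKI-606 replicates 1 to 4 and 10.76, 11.44, 10.39 and 10.19 in vehicle replicates 1 to 4. The highest values were those of both tumours numbered 2, and the other 3 SKI-606 tumours lay below every vehicle tumour. The difference was -0.82 ± 0.47 (SE), a 1.77-fold lower signal that did not pass (limma adjusted p = 0.450). It was -1.25 without SKI-606 replicate 2 (limma adjusted p = 0.121) and -0.58 without vehicle replicate 2 (limma adjusted p = 0.681), where adjusted p over all alternatives lay between these values. With both left out, a setting added after the values were seen, the Cldn4 difference was -1.01 (limma adjusted p = 0.174).

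Other tight junction genes were listed with Cldn4, and 9 of 25 were measured, 2 higher and 7 lower, with 0 past the threshold and a median difference of -0.04. The adhesion molecule gene F11r differed by 0.28 ± 0.19 (SE) and the junction protein gene Marveld3 by 0.26 ± 0.18 (limma adjusted p = 0.528 and 0.539). Cldn4 had the most negative difference of the 9.

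**Figure D2:**
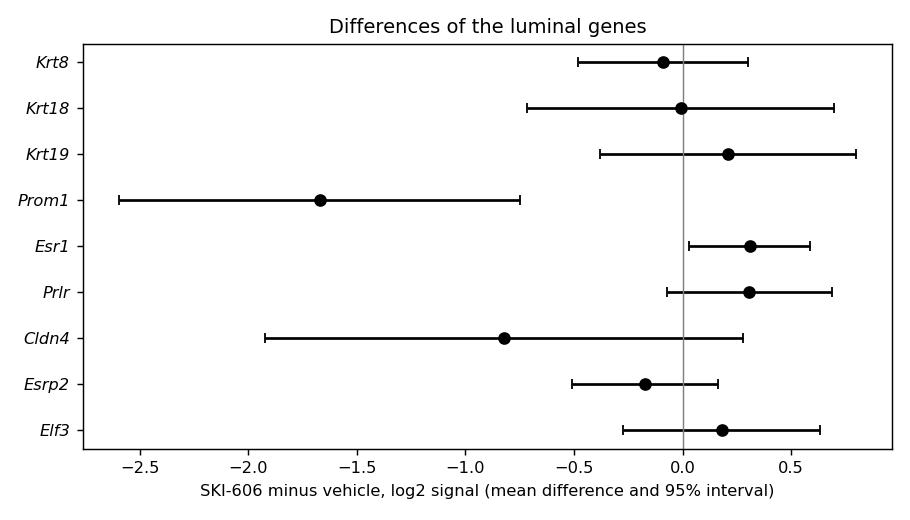
Mean difference in log2 signal, SKI-606 minus vehicle, for each luminal gene (points), with the 95% interval from limma (bars). The intervals of Prom1 (-2.59 to -0.75) and Esr1 (0.03 to 0.59) lie on 1 side of 0 before adjustment over all probes, and the other 7 include 0.

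Cldn4 and Prlr were the most closely tied members, in opposite directions. Their correlation over 8 tumours was r = -0.92 (exact permutation p = 0.00194, two-sided, adjusted 0.0697 over 36 pairs) and rho = -0.95 (exact permutation p = 0.00114, adjusted 0.0411). Thus the rank measure passed adjustment and r did not. The 2 measures were each adjusted over 36 pairs on their own, and no adjustment over both together was made. The relation kept its size without the tumours farthest from the Prlr median, SKI-606 replicate 3 and vehicle replicate 2 (r = -0.91), and within groups, at r = -0.88 on values minus their group means. Prom1 ran with Cldn4 (r = 0.77, exact permutation p = 0.0360, adjusted 0.212; rho = 0.64, exact permutation p = 0.0962) and against Esr1 (r = -0.79, exact permutation p = 0.00804, adjusted 0.0971; rho = -0.76, exact permutation p = 0.0368). Without SKI-606 replicates 1 and 3 these were 0.71 and -0.79. On values minus their group means the Prom1 and Esr1 relation was -0.50, nearer to 0. By r, 0 of the 36 pairs passed after adjustment.

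**Figure D3:**
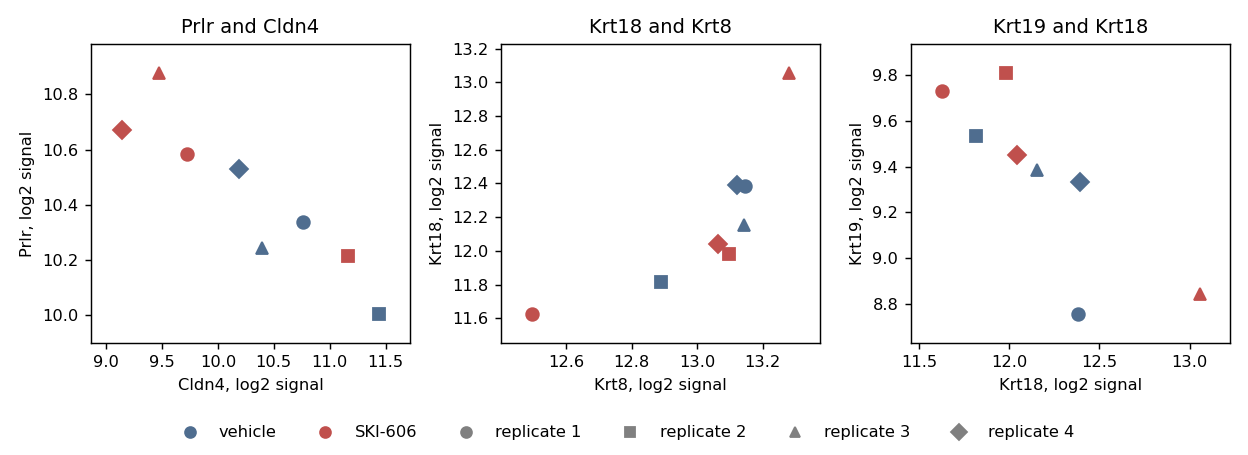
Log2 signals of 3 gene pairs across the 8 tumours (blue vehicle, red SKI-606, symbols for replicate numbers). Prlr falls as Cldn4 rises (r = -0.92), Krt18 rises with Krt8 (r = 0.79) and Krt19 falls as Krt18 rises (r = -0.82). SKI-606 replicates 1, 3 and 4 lie beyond every vehicle tumour on both Cldn4 and Prlr.

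Esrp2 encodes an RNA-binding protein that sets epithelial splicing patterns. Esrp2 signals were 8.05, 7.39, 7.76 and 7.62 in SKI-606 replicates 1 to 4, and 7.71, 7.99, 7.98 and 7.83 in vehicle replicates 1 to 4. SKI-606 replicate 1 was the highest tumour and SKI-606 replicate 2 the lowest, enclosing the vehicle range. The difference was -0.17 ± 0.14 (SE; limma adjusted p = 0.616). It was -0.45 under median scaling, -0.29 when SKI-606 replicate 1 was omitted and -0.067 when SKI-606 replicate 2 was. Among splicing factors and known targets of the Esrp proteins, 9 of 13 were measured, with 3 higher, 6 lower and 0 past the threshold. Enah, an actin regulator whose transcript Esrp proteins splice, differed by -0.82 ± 0.33 (limma adjusted p = 0.282) and the hyaluronan receptor gene Cd44, another such target, by -0.15 ± 0.08 (limma adjusted p = 0.399). The probes report gene signal and not splice forms.

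Elf3 encodes an ETS transcription factor of epithelia. Elf3 was dim (signals from 72.2 to 187.7) and read 6.37, 6.58, 7.31 and 6.52 in SKI-606 replicates 1 to 4, and 6.62, 6.50, 6.45 and 6.49 in vehicle replicates 1 to 4. SKI-606 replicate 3 alone stood high. The difference of 0.18 ± 0.19 (SE; limma adjusted p = 0.718) turned to -0.02 without that tumour. Elf3 followed Krt18 over all tumours (r = 0.87, exact permutation p = 0.0108, adjusted 0.0971; rho = 0.52, exact permutation p = 0.197), and r was 0.19 without SKI-606 replicates 3 and 1, so the relation rests on those tumours. In SKI-606 replicate 3 the proliferation list, 8 of 21 measured, stood 2.07 below the vehicle mean, against -0.67 to 0.13 in the other SKI-606 tumours. The part of this in its high Krt18 and Elf3 was not tested.

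Among ETS and related epithelial factors 7 of 21 were measured, 4 higher and 3 lower, with 0 past the threshold and a median difference of 0.12. The ETS factor gene Gabpa differed by -0.33 ± 0.08 (SE; limma adjusted p = 0.154), with groups that did not overlap, and Elf2 by 0.20 ± 0.25 (limma adjusted p = 0.755). For the luminal and alveolar lineage list, 7 of 27 were measured and 5 of those are members. The non-members were Gata3, given above, and the surface protein gene Cd24a, at -0.03 ± 0.26 (limma adjusted p = 0.975).

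All 9 luminal genes varied more among SKI-606 than among vehicle tumours. Their median SD was 0.42 with the drug and 0.22 without, whereas over all probes the medians were 0.19 and 0.13, and 66.4% of probes had the larger SD in the SKI-606 group. The SKI-606 range enclosed the vehicle range for 4 of 9 genes (Krt8, Krt18, Esrp2 and Elf3), against 25.1% of all probes. SKI-606 replicate 1 was the lowest of 8 tumours for 4 of the genes and the highest for 2, and SKI-606 replicate 3 was the highest for 4. No vehicle tumour was at an end for more than 2 genes. These 2 SKI-606 tumours also had low array weights, 0.436 and 0.390, as did vehicle replicate 4 at 0.455. A low weight marks an array that departs from its group over all probes.

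**Figure D4:**
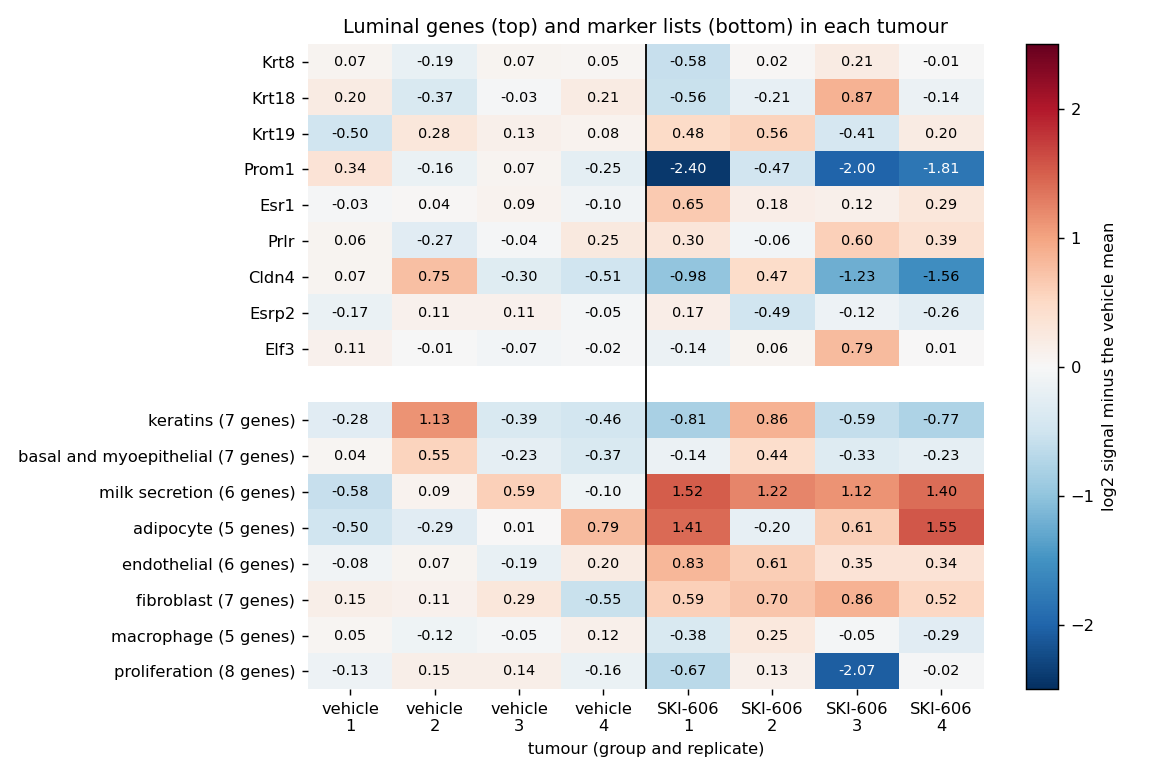
Log2 signal minus the vehicle mean in each tumour (columns) for the 9 luminal genes (upper rows) and, as a mean over measured genes, for 8 marker lists (lower rows); red is above and blue below the vehicle mean, with the value printed. Prom1 is -2.40, -0.47, -2.00 and -1.81 in SKI-606 replicates 1 to 4, and the keratin list stands out in both tumours numbered 2 (0.86 and 1.13).

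The named genes whose log2 signal was most like that of Prom1 over the 8 tumours were Hspbap1 (r = 0.97), the RNA helicase gene Dhx9 (r = 0.97) and the kinesin gene Kif3c (r = 0.97), among 4060 compared. For Krt8 they were Tomm40, which encodes the pore of the mitochondrial outer membrane (r = 0.95), the acyl-CoA dehydrogenase family gene Acad9 (r = 0.95) and the phosphatase subunit gene Ppp2r5d (r = 0.94). In all, 38 genes exceeded 0.9 with Prom1 and 18 with Krt8. Hspbap1, Dhx9 and Kif3c were also lower with SKI-606, by differences of -1.04, -0.78 and -0.61. Their r with Prom1 was taken over both groups together and so includes the difference between groups. These likenesses are descriptions over 8 arrays that share a chip and its normalization.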

How the data were processed

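Array signals of 8 mammary tumours, 4 per group, were analysed from the deposited tables. Per the file headers, the authors deposited an average signal intensity and a detection p-value for each probe and array. The values showed no background subtraction and no scaling between arrays. A second deposited table of intensity values for 11434 probes, already with common quantiles, served as an alternative. The sources used here name no array software or genome build.

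Signals were background-corrected with normexp, quantile-normalized and put on the log2 scale with neqc (limma 3.58.1, R 4.3.3), with an offset of 16 and negative controls that neqc infers from detection. The 4 bacterial control probes were left out, and a probe was kept where its detection p was below 0.05 in 4 or more of the 8 arrays, which left 12281. Groups, taken from sample titles, were compared with lmFit and eBayes, group alone in the model, and Benjamini-Hochberg adjustment over all kept probes. The number of arrays limits the precision. Vehicle replicate 3 is unnumbered in the titles, and its number is only a name.

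Identifiers with zero padding and a number of at least 5 digits were named through gene IDs of RefSeq (GRCm38.p6): 92.7% of 7968 such numbers matched, against 48.9% after adding 1. Of the kept probes, 4638 had a name and 7643 had none. Where a gene had several kept probes, the brightest stood for it. Named beside the members were, from each luminal list, the 2 non-members with the smallest p, and the 3 genes most like Prom1 and Krt8. A gene that this rule names is not reported here. Greb1, Jak2 and the keratins of the closing section were named after their values were seen. Marker lists are means of the log2 signals of their measured genes, and their summed level is the log2 of the summed signals. Pairs of members were tested by exact permutation over all pairings. The members and lists were chosen with earlier results of these data known. The fit and the motif search were tested on simulated data. Figures were drawn with matplotlib 3.10.9.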

Additional observations from a re-analysis of the deposited data

Results flagged for a closer look

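Of 18 sets of 4 values (9 genes in 2 groups), 1 held a tumour far from the others: Krt8 in vehicle replicate 2, at 12.89 against 13.12 to 13.15 in the other vehicle tumours. Its gap to the nearest value was 0.909 of the group's range, above the critical value for 4 samples. Chance alone gives about 1 such case in 20 sets.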

How the results depend on the processing

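Of the 20 alternatives fixed for each gene, Prom1, Esr1, Prlr, Cldn4 and Esrp2 kept their direction in all 20, Krt8 and Krt19 in 19, Elf3 in 18 and Krt18 in 14. Not all 20 could reverse a direction. Dropping or tightening the probe filter, the intensity trend with robust prior, and the mean of kept probes left every member's difference unchanged. For Prom1 and Esr1, whose groups did not overlap, leaving out 1 array could not reverse it either. For pairs of members the alternatives were the authors' normalized values and each single array left out, and no pair passed by r in any. The rho of Prlr and Cldn4, which passed adjustment over the rho values alone, is given for the main setting only. The count of probes past the threshold, 1 in the main setting, was 0 with median scaling, a neqc offset of 50, detection at 0.01 on all arrays, or an intensity trend and robust prior, and 0 with both tumours numbered 2 left out (added after the values were seen). It was 185 with array weights, and 0 to 13 with single arrays left out (7 and 13 when SKI-606 replicates 1 and 2 were dropped in turn, 0 for SKI-606 replicate 3 and for each vehicle replicate). Members past the threshold numbered 1 with array weights (Prom1 at -1.73) and 0 to 1 with single arrays left out, where Prom1 ran from -2.07 to -1.43, Krt8 from -0.19 to 0.073, Krt18 from -0.30 to 0.17 and Elf3 from -0.025 to 0.29. Krt18 was at 0.036 with cyclic loess and Krt19 at -0.047 with median scaling. The cause of these changes was not tested. Numbers 1, 2 and 4 occur in both groups, and the deviations of same-numbered tumours correlated at 0.00, 0.63 and -0.02, so only number 2 showed likeness and the numbers were not taken as pairs. With a replicate block over these 6 arrays the count was 0, and Elf3 stood at -0.049, Krt18 at -0.31 and Krt19 at 0.46. Signal over background limits the dim probes: the Esr1 difference lay between 0.20 and 0.49 among the alternatives that left out no single array.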

Other observations

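Several keratins of stratified epithelium (Krt6a, Krt6b, Krt10 and Krt17) were high in the same 2 tumours, SKI-606 replicate 2 and vehicle replicate 2, and lower in the other 6. Krt6a, a stress and wound keratin of skin, gave signals of 1721 and 1346 there by its brightest probe and was not detected in the other tumours (signals from 34.7 to 50.1), and its other 2 probes were likewise detected only in these tumours. Krt6b, its near-identical relative, so that the signals of this pair are uncertain as to which gene they report, read 722.1 and 551.0 against 43.6 to 61.0. Krt10, a keratin of differentiating epidermis, read 762.1 and 1532 against 92.3 to 197.6. On the log2 scale Krt17 was at 11.63 and 11.36 in these tumours, and Klf4, a transcription factor of epidermal differentiation, at 8.97 and 8.85 against at most 7.05 elsewhere. Krt15 was 9.89 in vehicle replicate 2 and 7.36 in SKI-606 replicate 2, which lay close to vehicle replicates 1 and 3 (7.26 and 7.34).

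The luminal members did not follow these keratins as a set. Cldn4 was highest in the same tumours (11.17 and 11.44) and Prlr was lowest in its group in each (10.22 and 10.01), while Krt8 and Krt18 were within the range of the others. Each group held 1 such tumour, and the keratin list had a median difference of -0.09 between groups. Over all kept probes SKI-606 replicate 2 correlated at 0.98 with vehicle replicate 2 and at 0.94 to 0.97 with the other SKI-606 tumours. With vehicle replicates 1, 3 and 4 it correlated at 0.97, 0.97 and 0.94. A value of 0.98 was not particular to the tumours numbered 2, because SKI-606 replicate 4 reached it with vehicle replicate 3. Probes are not independent replicates. These genes were noticed in the data and carry no test.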
